A study of Homo sapiens with 35 samples.

Results

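*SLCO2B1*, *OLAH* and *TTC29* are 3 protein-coding genes whose transcripts were higher in U-87 MG cells after TWEAK exposure, and much lower when *ETS1* was knocked down in TWEAK-treated cells. They are 3 of 62649 distinct genes in the count table and of 16879 genes with enough reads to be tested. The genes were picked from the RNA-seq values of these same libraries, as higher in TWEAK-treated than in untreated control cells, strongly lower in *ETS1* knockdown (KD) cells and less so in *NFKB2* KD cells. Their RNA-seq levels are therefore given as a description, with no test. One of the 3, *SLCO2B1*, was not lower on average in *NFKB2* KD cells.

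The cells are U-87 MG, a long-established glioblastoma line of human origin. RNA-seq was performed in 4 groups of 3 replicates. Control cells were left untreated or received TWEAK, and *ETS1* KD and *NFKB2* KD cells all received TWEAK. The KDs were made with CRISPR guides delivered by lentivirus, and no untreated KD library was analysed here, so an effect of a KD without TWEAK cannot be told apart from one on the response to TWEAK. All cells were kept for 24 h after seeding and starved in Opti-MEM for 8 h, and TWEAK was given at 10 ng/ml for 48 h with a renewal at 24 h. ChIP-seq peak lists came from 20 libraries in 10 groups of 2, covering p52 (control cells with and without TWEAK, and *ETS1* KD cells with TWEAK made with each of 2 guides), ETS1 (control cells with and without TWEAK) and RNA Pol II (control cells with and without TWEAK, *ETS1* KD and *NFKB2* KD cells with TWEAK). The labels do not say which guide was used for RNA-seq or whether replicates were separate cultures, so p-values measure only the spread between these samples.

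TWEAK, a cytokine related to TNF, binds the receptor Fn14 and activates non-canonical NF-κB signalling. In this pathway *NFKB2* encodes a precursor, p100, that is cut to the DNA-binding subunit p52. ETS1 is a transcription factor that binds DNA through its ETS domain at sites with a GGAA core and commonly acts next to other factors, such as the AP-1 family. *SLCO2B1* encodes OATP2B1, an organic anion transporter of the cell membrane that takes up steroid sulfates and many drugs. *OLAH* encodes oleoyl-ACP hydrolase, a thioesterase that releases medium-chain fatty acids from fatty acid synthase and is known from the mammary gland. *TTC29* encodes a tetratricopeptide repeat protein of the axoneme that is needed for the sperm flagellum.

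The RNA-seq libraries held between 28384201 and 40192606 counts. Of 11 markers of a glioma line, 8 had enough reads to be tested, among them *VIM* with 263040 to 617646 counts per library and *OLIG2* with 18 to 61. The other 3, *GFAP*, *S100B* and *SOX2*, had 2 to 13, 0 to 5 and 0 to 2 counts. Of 11 markers of other cells, 7 had at most 8 counts, with *RBFOX3* of neurons at 0. *SYT1*, also of neurons, was tested, with 336 to 657 counts per library. *MBP* (27 to 73), *EPCAM* (26 to 61) and *PECAM1* (23 to 58) were tested too. The summed level of these 11, in counts per library scaled by its TMM-normalised total (CPM), was 18.1 to 22.6 in untreated and 20.3 to 21.2 in TWEAK-treated control cells, 14.5 to 16.6 under *ETS1* KD and 14.5 to 20.1 under *NFKB2* KD. In bulk RNA, fewer cells with a transcript and less of it per cell cannot be told apart.

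The targeted genes were examined first. Without TWEAK, *ETS1* was at 42.8 ± 1.99 CPM (mean ± SD, n = 3). With TWEAK it was at 77.5 ± 8.69 in control, 33.0 ± 4.78 under *ETS1* KD and 60.4 ± 10.1 under *NFKB2* KD. It rose 1.81-fold with TWEAK (edgeR quasi-likelihood test, adjusted p = 0.0076) and was 2.35-fold lower in *ETS1* KD than in TWEAK-treated control cells (edgeR, adjusted p = 0.00112). Its level in *NFKB2* KD cells was 1.28-fold lower than in TWEAK-treated control cells. This did not pass the test after adjustment (edgeR, unadjusted p = 0.0296, adjusted p = 0.9996). *NFKB2* rose 5.10-fold with TWEAK (edgeR, adjusted p = 2.92e-05) and was 3.19-fold lower in *NFKB2* KD cells (edgeR, adjusted p = 0.00339), while its level in *ETS1* KD cells was 1.21-fold lower, which did not pass the test (edgeR, adjusted p = 0.61). Each KD therefore had less of the targeted transcript, with 0.425 times the *ETS1* level and 0.314 times the *NFKB2* level of control cells remaining.

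**Figure D1:**
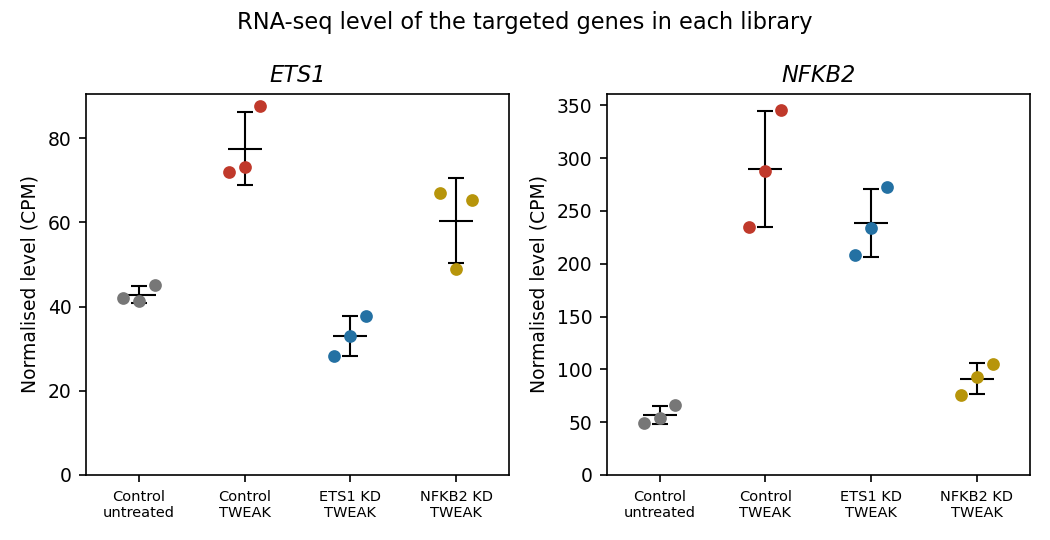
Normalised RNA-seq level (CPM, linear axis from 0) of *ETS1* and *NFKB2* in each of 12 libraries, in 4 groups of 3. Points are libraries, and bars are the mean ± SD. *ETS1* is lowest in *ETS1* KD cells, at 28.2 to 37.8 CPM, and *NFKB2* in TWEAK-treated cells is lowest in *NFKB2* KD cells, at 75.6 to 104.8 CPM.

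*SLCO2B1* (ENSG00000137491, chr11:75100563-75206549 in hg38, plus strand) has 2 annotated starts that are described here. The first is its most upstream annotated start, at 75100563, where the p52 peaks lay. The second is the start of its principal transcript, at 75151107, where no peak lay. *TTC29* (ENSG00000137473) is at chr4:146706617-146945882 on the minus strand, and *OLAH* (ENSG00000152463) at chr10:15032227-15073853 on the plus strand. The sequences shown are the 250 bases before each of these *SLCO2B1* starts, one with and one without a p52 peak. Capitals mark a match to TGANTCA (AP-1) in the first and to AGGAAG (ETS), read on the opposite strand, in the second. Both are written 5′ to 3′ on the plus strand of hg38, and the second is the RefSeq promoter (GRCh38.p14).
SLCO2B1 upstream start, chr11:75100313-75100562: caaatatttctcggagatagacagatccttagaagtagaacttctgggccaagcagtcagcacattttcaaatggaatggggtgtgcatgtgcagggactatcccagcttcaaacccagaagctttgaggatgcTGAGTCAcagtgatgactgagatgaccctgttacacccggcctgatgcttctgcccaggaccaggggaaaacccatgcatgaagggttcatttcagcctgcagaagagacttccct
SLCO2B1 principal start, chr11:75150857-75151106: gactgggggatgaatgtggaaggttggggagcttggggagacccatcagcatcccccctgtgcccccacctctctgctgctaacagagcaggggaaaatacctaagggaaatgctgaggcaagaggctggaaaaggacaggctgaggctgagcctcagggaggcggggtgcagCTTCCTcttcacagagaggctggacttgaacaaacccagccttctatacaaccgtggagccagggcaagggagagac

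The motifs searched, on both strands, were 4. A shorter ETS motif was searched as AGGAAG and a longer one as CCGGAAG, and a site cannot match both at the same GGAAG. Sites with only the GGAA core were not counted, and the bases shown before the upstream *SLCO2B1* start hold such cores. AP-1 was searched as TGANTCA, and κB by its consensus. The 300 bases around each p52 summit were searched in replicate 2 of TWEAK-treated control cells (11761 peaks). Of these windows, 69.1% held the κB consensus, 31.8% the shorter ETS motif, 28.9% the AP-1 motif and 2.95% the longer ETS motif. The window around the *SLCO2B1* summit held the AP-1 motif, beginning 45 bases before the summit and 116 bases before the upstream start, and no match to the other 3. RefSeq promoters ran from 250 bases before to 50 after a start. Of 35116 entries, 33.6% held the shorter ETS motif, 11.3% κB, 10.3% the longer ETS motif and 7.71% AP-1. Each of the 2 *SLCO2B1* promoter entries held the shorter ETS motif once, at 77 and 18 bases before the start, and no other match. The *TTC29* entry held none of the 4 motifs. These matches describe letters and are not shown to be bound.

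*SLCO2B1* had 19, 25 and 21 counts in the 3 untreated control libraries, 99, 172 and 157 with TWEAK, 40, 31 and 40 in *ETS1* KD cells, and 118, 214 and 219 in *NFKB2* KD cells. All TWEAK-treated control libraries lay above all untreated and all *ETS1* KD libraries, and the *NFKB2* KD libraries lay on both sides of the TWEAK-treated control libraries. The mean level was 0.695 ± 0.0636 CPM in untreated and 4.06 ± 0.445 in TWEAK-treated control cells, against 1.09 ± 0.121 under *ETS1* KD and 5.29 ± 1.68 under *NFKB2* KD (SD, n = 3). Its log2 fold change was 2.54 ± 0.26 (standard error) with TWEAK, -1.90 ± 0.24 in *ETS1* KD against TWEAK-treated control cells and 0.38 ± 0.22 in *NFKB2* KD cells. On the linear scale it was 5.83-fold higher with TWEAK and 3.73-fold lower in *ETS1* KD cells. Of its rise above untreated cells, 88.3% was missing in *ETS1* KD cells, which stayed 1.56-fold above untreated cells.

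*OLAH* had the fewest reads of the 3, with 8, 3 and 11 counts in untreated control libraries, 40, 39 and 51 with TWEAK, 7, 7 and 6 in *ETS1* KD cells and 26, 15 and 38 in *NFKB2* KD cells. In normalised level the lowest TWEAK-treated control library, at 0.970 CPM, lay above the highest untreated library, at 0.344 CPM, and the *ETS1* KD libraries fell within the untreated range. The mean level was 0.238 ± 0.130 CPM without TWEAK and 1.27 ± 0.262 with it in control cells, 0.197 ± 0.0226 under *ETS1* KD and 0.771 ± 0.374 under *NFKB2* KD. Its log2 fold change with TWEAK was 2.40 ± 0.45, and against TWEAK-treated control cells it was -2.66 ± 0.46 for *ETS1* KD and -0.72 ± 0.38 for *NFKB2* KD. In normalised level, the highest *NFKB2* KD library, at 1.15 CPM, overlapped the TWEAK-treated control libraries. The level in *ETS1* KD cells was 6.34-fold lower than in TWEAK-treated control cells, and the rise with TWEAK was missing in full (104% of it). At 3 to 51 counts per library, counting error alone is large for this gene.

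*TTC29* had 46, 37 and 39 counts in untreated control libraries, 159, 182 and 157 with TWEAK, 13, 32 and 36 in *ETS1* KD cells and 86, 53 and 105 in *NFKB2* KD cells. The *ETS1* KD libraries were all below all untreated libraries, and the *NFKB2* KD libraries were all below the TWEAK-treated control libraries. Its mean level was 1.32 ± 0.246 CPM untreated, 4.86 ± 0.732 with TWEAK, 0.797 ± 0.361 under *ETS1* KD and 2.37 ± 0.880 under *NFKB2* KD. With TWEAK the log2 fold change was 1.88 ± 0.33, and for *ETS1* KD and *NFKB2* KD it was -2.60 ± 0.35 and -1.03 ± 0.32. On the linear scale it was 3.69-fold higher with TWEAK, 6.07-fold lower in *ETS1* KD cells and 2.05-fold lower in *NFKB2* KD cells. The *ETS1* KD level was 1.65-fold below that of untreated control cells, a log2 difference of -0.72 ± 0.37, and *ETS1* KD replicate 1, with 13 counts, was the lowest.

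**Figure D2:**
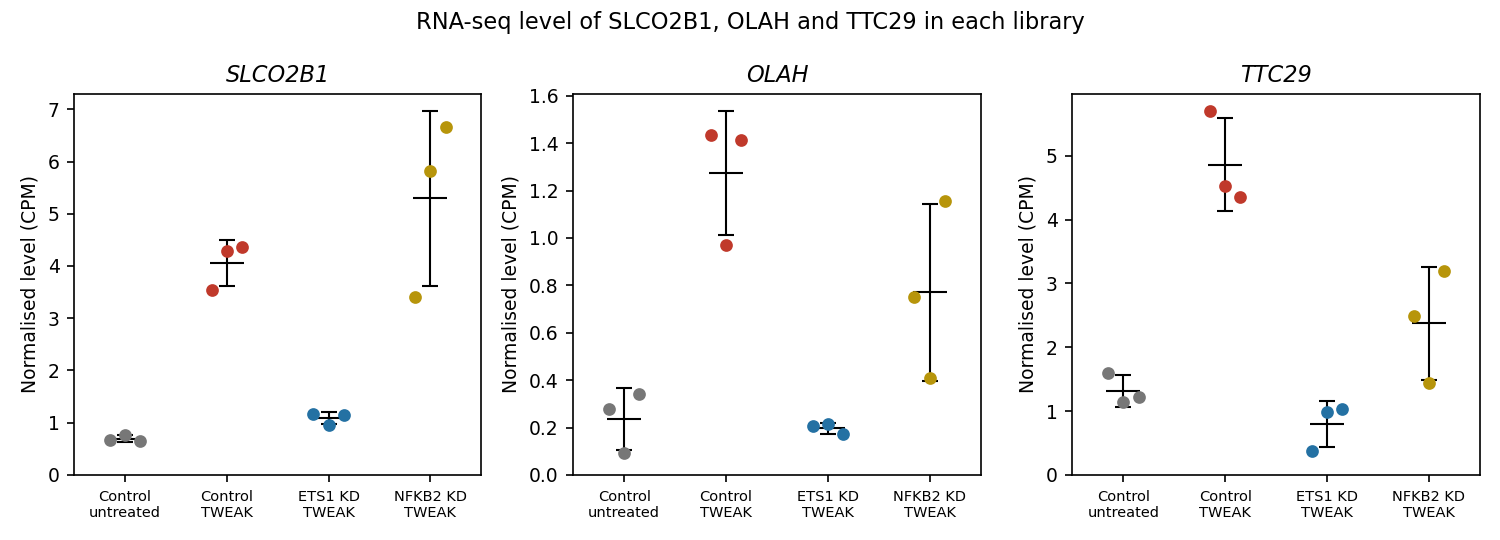
Normalised RNA-seq level (CPM, linear axes from 0, a scale for each gene) of *SLCO2B1*, *OLAH* and *TTC29* in 12 libraries. Points are libraries, and bars are the mean ± SD of 3. TWEAK-treated control libraries lie above untreated and *ETS1* KD libraries for each gene, and *NFKB2* KD libraries differ among the genes, from 5.29 CPM on average for *SLCO2B1*, above the 4.06 of TWEAK-treated control cells, to 2.37 for *TTC29*, below its 4.86.

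Per kb of exon, *TTC29* had the highest level in TWEAK-treated control cells (1.45 ± 0.218 CPM per kb), followed by *OLAH* (0.545 ± 0.112) and *SLCO2B1* (0.395 ± 0.0433). The ranges of the 2 lower genes overlapped by a narrow margin, with the lowest *OLAH* library at 0.416 and the highest *SLCO2B1* library at 0.424. All 3 were far below *ETS1*, at 10.8 ± 1.22 CPM per kb. The order of the groups also differed among the genes. *SLCO2B1* was highest in *NFKB2* KD cells, then TWEAK-treated control, *ETS1* KD and untreated cells, with the first pair overlapping. *OLAH* and *TTC29* were highest in TWEAK-treated control cells, then *NFKB2* KD cells, untreated cells and *ETS1* KD cells, and the libraries of *OLAH* overlapped in the first and the last pair and those of *TTC29* in the middle pair.

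Compared directly, *ETS1* KD cells had 4.85-fold less *SLCO2B1*, 3.84-fold less *OLAH* and 2.96-fold less *TTC29* than *NFKB2* KD cells. Relative to untreated control cells, *NFKB2* KD cells kept a log2 fold change of 2.92 ± 0.26 for *SLCO2B1*, 1.68 ± 0.46 for *OLAH* and 0.85 ± 0.34 for *TTC29*. The share of the rise with TWEAK that was missing in *NFKB2* KD cells was 48.5% for *OLAH* and 70.2% for *TTC29*, and none was missing for *SLCO2B1*. Both KD comparisons share the TWEAK-treated control libraries. *ETS1* itself was 1.28-fold lower in *NFKB2* KD cells, and the part of this in the levels of *OLAH* and *TTC29* was not tested.

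**Figure D3:**
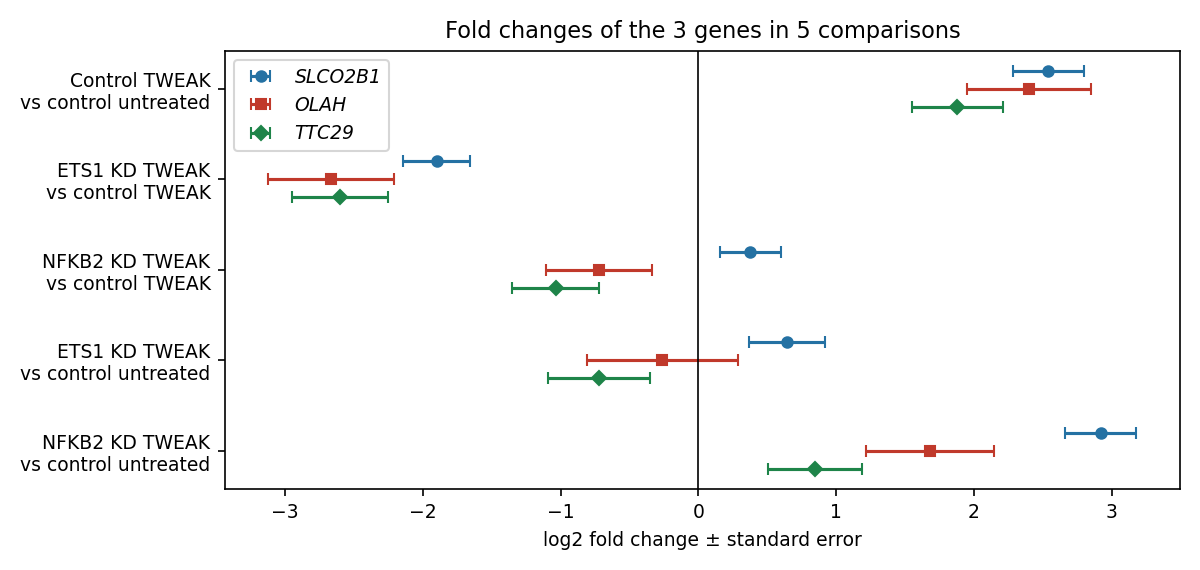
Log2 fold change ± standard error (edgeR, 3 libraries per group) of *SLCO2B1*, *OLAH* and *TTC29* in 5 comparisons. In *NFKB2* KD against TWEAK-treated control cells *SLCO2B1* is at 0.38, *OLAH* at -0.72 and *TTC29* at -1.03, and in *ETS1* KD cells all 3 lie between -2.66 and -1.90.

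Across all 16879 genes, edgeR called 261 higher (1.55%) and 259 lower (1.53%) with TWEAK at an adjusted p under 0.05, or 3.08% together. In *ETS1* KD cells it called 43 higher (0.255%) and 191 lower (1.13%), or 1.39% together. The *NFKB2* KD comparison gave 1 higher (0.00592%) and 4 lower (0.0237%), or 0.0296% together. Genes that were both higher with TWEAK and lower in *ETS1* KD cells numbered 21 (0.124%), or 97 (0.575%) with cut-offs of 0.05 on the unadjusted p and 1.5-fold. The 3 genes belong to these by their choice. Of the 21, 6 were lowered at least as much as *SLCO2B1*, the least lowered of the 3. These were the lncRNA ENSG00000269826 (log2 fold change -3.45), *OLAH*, *TTC29*, the cytokine genes *IL24* (-2.31) and *IL6* (-2.18), and *SLCO2B1*. Just outside were *NFKBIZ*, encoding the atypical IκB protein IκBζ (-1.42), and the chemokine gene *CXCL2* (-1.40). In *NFKB2* KD cells the highest log2 fold changes of the 21 were those of *SLCO2B1* (0.38) and *BCL11B*, a zinc finger transcription factor gene (0.12), and the lowest was that of the chemokine gene *CCL3* (-1.40). The 21 were called against the TWEAK-treated control libraries that are also the reference here, so nothing is read from their direction. Over all genes 3.91% had an unadjusted p under 0.05 in the *NFKB2* KD comparison, against 14.7% with TWEAK and 12% for *ETS1* KD.

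**Figure D4:**
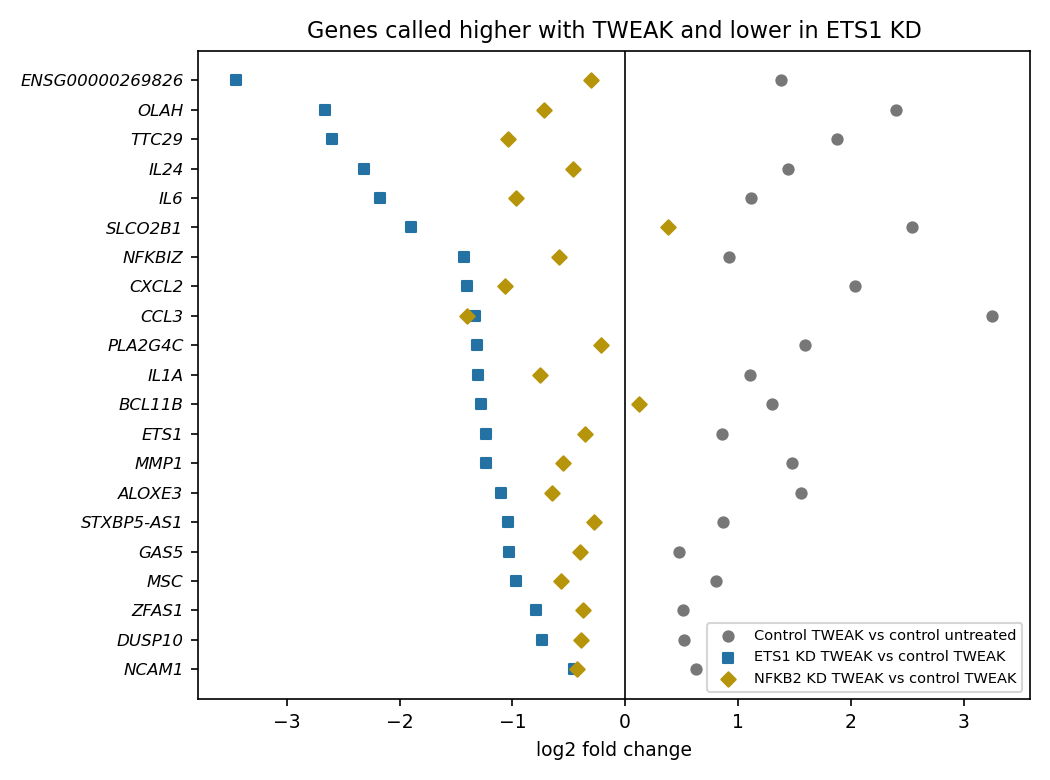
Log2 fold change of the 21 genes called higher with TWEAK and lower in *ETS1* KD cells, ordered by the change in *ETS1* KD. Circles show TWEAK against untreated, squares *ETS1* KD and diamonds *NFKB2* KD against TWEAK-treated control cells, which all 3 comparisons share. *OLAH* (-2.66) and *TTC29* (-2.60) follow the lncRNA at the top, and *SLCO2B1* (-1.90) has the highest *NFKB2* KD value, 0.38.

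The genes most like each of the 3 over the 12 libraries (Pearson correlation of log2 CPM) were also described. For *SLCO2B1* these were *PLA2G4C*, a phospholipase A2 gene (r = 0.957), *BCL11B* (0.952), the lncRNA ENSG00000251127 (0.938), *CLDN14*, a tight junction gene (0.920), and *CST1*, a cystatin gene (0.903). For *OLAH* they were *STXBP5-AS1* (0.918), the lipoxygenase family gene *ALOXE3* (0.910), *KRT8P46* (0.909), *ETS1* (0.902) and *LINC02863* (0.901). For *TTC29* they were *ETS1* (0.953), the tryptophanyl-tRNA synthetase gene *WARS1* (0.952), the cytokine gene *TSLP* (0.913), the phosphatase gene *DUSP10* (0.908) and *ZFAS1* (0.907). *ETS1* was the target of one KD and the genes were chosen on that contrast, so its place among these is no independent observation. Among the 3 themselves r was 0.880 for *OLAH* and *TTC29*, 0.806 for *SLCO2B1* and *OLAH*, and 0.678 for *SLCO2B1* and *TTC29*. The 3 were chosen for a similar pattern over these same libraries. Neither these values nor the lists of like genes are therefore independent observations. The 12 points are 4 groups of 3 libraries that share a condition.

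Peaks were then located at each gene and within 15 kb of any of its annotated starts. *SLCO2B1* had a p52 peak over its upstream start in 5 of 8 p52 lists, at 50.6 kb upstream of the principal start. In TWEAK-treated control cells it lay at chr11:75100312-75100674 in replicate 1 (fold enrichment 9.67, rank 1474 of 3579 peaks by q-value) and at chr11:75100286-75100718 in replicate 2 (26.8, rank 964 of 11761). The same bases lie inside the antisense lncRNA gene ENSG00000255395, which had 0 or 1 count per library. Neither untreated list held the peak, and those lists held a p52 peak within 15 kb of 0.255% and 0.13% of all genes tested, compared with 11.9% and 35.3% for TWEAK-treated control cells. Of the *ETS1* KD lists, the peak was present in guide 1 replicate 2 (13.3) and in both guide 2 replicates (14.2 and 13.2), and was not listed in guide 1 replicate 1, the library with the fewest genes near a p52 peak among the TWEAK-treated lists (5.11%, against 13.9% in guide 1 replicate 2 and 15.7% and 13.8% in the guide 2 replicates). The p52 peak was thus listed in 3 of 4 *ETS1* KD lists, while the *SLCO2B1* transcript was 3.73-fold lower in the separate RNA-seq libraries of *ETS1* KD cells. With 2 against 4 lists and no read counts, the enrichment values cannot be tested for a difference.

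At or within 15 kb of a start of *TTC29*, p52 peaks were listed in 1 of 8 p52 lists, replicate 2 of TWEAK-treated control cells, and RNA Pol II peaks in 2 of 8 lists, replicate 1 of TWEAK-treated control cells and replicate 1 of *NFKB2* KD cells. No peak at *TTC29* was listed in both replicates of any group.

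*OLAH* had no peak of any antibody in the 20 lists. The nearest p52 summit in TWEAK-treated control replicate 2 was 81.3 kb away, close to a start of *DCLRE1C*, a DNA repair gene. RNA Pol II and ETS1 peaks nearest to *OLAH* lay 31.7 to 31.9 kb from its nearest start in 9 of 12 lists, at the start shared by *RPP38*, a ribonuclease P subunit gene, and *RPP38-DT*. *RPP38* had a log2 fold change of 0.06 ± 0.13 with TWEAK and 0.03 ± 0.13 in *ETS1* KD cells, neither of which passed the test (edgeR, adjusted p = 0.902 and 0.984).

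No ETS1 peak was listed at or within 15 kb of a start of any of the 3 genes in the 4 ETS1 lists. Over all genes tested, 20.4% and 9.91% had an ETS1 peak within that distance in the untreated lists and 19.4% and 17.0% in the TWEAK lists, as did 8.69% to 17.7% of the 5826 genes with an average log2 CPM under 2, so that most genes had no listed ETS1 peak. RNA Pol II peaks were absent from *SLCO2B1* and *OLAH* in all 8 lists. Over all genes tested, 62.8% and 82.8% had one in untreated control, 79.5% and 74.2% in TWEAK-treated control, 68.1% and 72.4% in *ETS1* KD and 75.3% and 57.3% in *NFKB2* KD lists, and of genes with an average log2 CPM under 2, 40.7% to 64.9% had one. The depth of the ChIP-seq libraries is unknown, and a region that is not listed is not shown to be unbound.

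**Figure D5:**
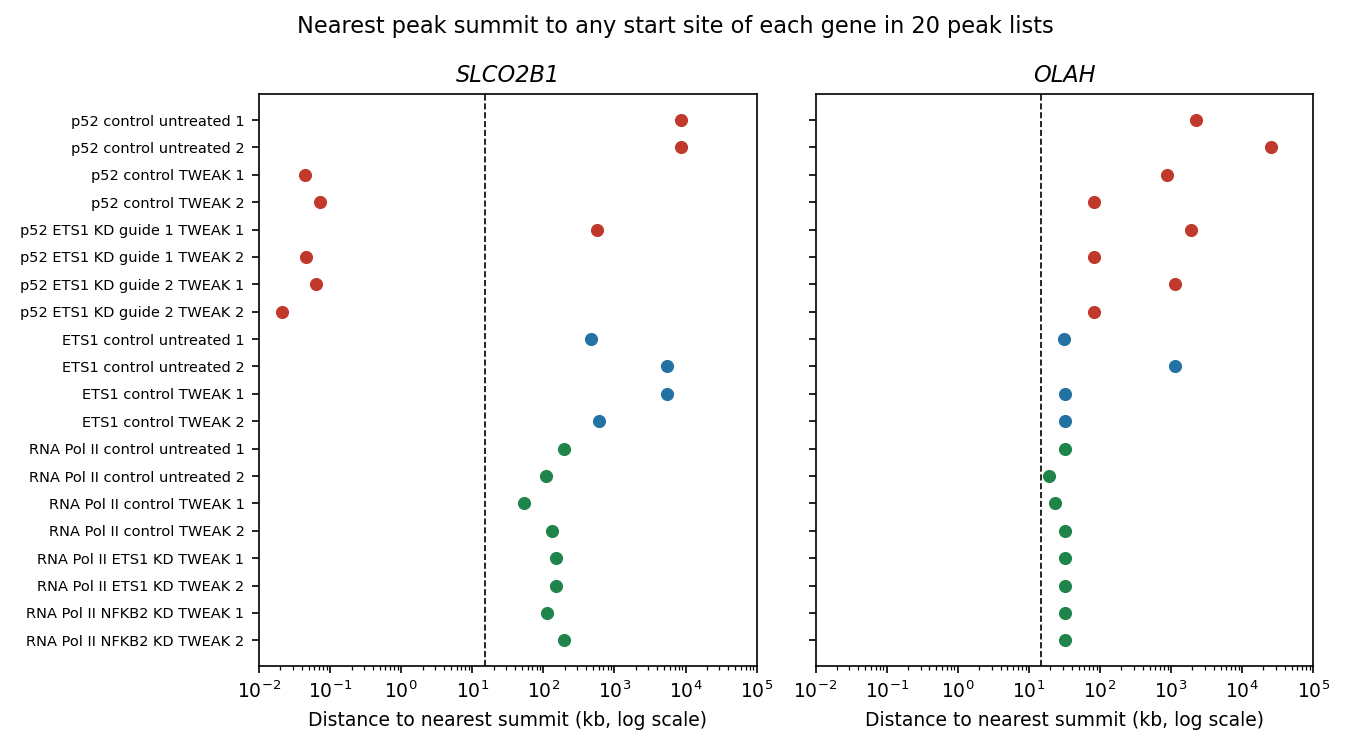
Distance in kb (log axis) from any annotated start of *SLCO2B1* or *OLAH* to the nearest peak summit in each of 20 peak lists. Red is p52, blue ETS1 and green RNA Pol II, and the dashed line marks 15 kb. For p52, 5 lists have a summit within 0.1 kb of a start of *SLCO2B1*, and none of the 20 lists has one within 15 kb of *OLAH*.

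Genes around the 3 and genes of the same families were examined with the same fit. Within 250 kb lay 24 other genes for *SLCO2B1*, 19 for *OLAH* and 9 for *TTC29*, of which 6, 10 and 1 had enough reads. By edgeR and by DESeq2, 0 of these 17 were called in any of the 3 comparisons. By edgeR, 0, 1 and 2 had an unadjusted p under 0.05 with TWEAK, in *ETS1* KD and for *NFKB2* KD. Over all genes tested, edgeR called 3.08%, 1.39% and 0.0296% in these comparisons. An unadjusted p under 0.05 was reached by 14.7%, 12% and 3.91% of them. The annotated genes that overlap the 3 genes had 0 or 1 count in any library. Among the 17 neighbours tested, the lowest unadjusted p was that of *CDNF*, a neurotrophic factor gene near *OLAH* with at most 24 counts. *CDNF* was at a log2 fold change of -1.20 ± 0.44 in *ETS1* KD cells (edgeR, adjusted p = 0.27).

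Of the 11 other genes of the OATP transporter family, 2 had enough reads. *SLCO4A1*, which transports thyroid hormone and prostaglandins, rose 2.77-fold with TWEAK (edgeR, adjusted p = 0.0173) and was 1.33-fold higher in *ETS1* KD than in TWEAK-treated control cells without passing the test (edgeR, adjusted p = 0.672). Without untreated replicate 1 or 2, or TWEAK-treated control replicate 2 or 3, 0 of the listed genes were called higher, so that *SLCO4A1* lost its call in each of these 4. *SLCO3A1* was at log2 fold changes of -0.08 and -0.04 in these comparisons, neither past the test. Among fatty acid synthesis genes, the pathway on which OLAH acts, 21 of 23 were tested. *SCD*, which desaturates stearoyl-CoA, fell with TWEAK to 0.594 times its untreated level (edgeR, adjusted p = 0.0076), and in *ETS1* KD cells 0 were called by edgeR or DESeq2 and 0 had an unadjusted p under 0.05, with a median log2 fold change of 0.10 against 0.01 over all genes. Of 13 tested acyl thioesterase genes (18 listed), the enzyme class of OLAH, 0 were called by edgeR or DESeq2 in any comparison. An unadjusted p under 0.05 was found for 3 with TWEAK, 2 in *ETS1* KD and 2 in *NFKB2* KD. The shares over all genes were 14.7%, 12% and 3.91%.

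Among sperm flagellum and axoneme genes, to which *TTC29* belongs by function, 21 of 33 were tested and 0 were called by edgeR in any comparison. At an unadjusted p under 0.05 there were 3 with TWEAK, 5 in *ETS1* KD and 1 in *NFKB2* KD. The shares over all genes were 14.7%, 12% and 3.91%. DESeq2 called 0, 1 and 0 of these axoneme genes. Their median log2 fold change in *ETS1* KD cells was -0.48, with 18 of 21 below 0, against 0.01 over all genes, of which 49.1% were below 0. The 4 tested markers of other cells were also below 0 there, with a median of -0.54 and 0 called by edgeR. Whether such cells were present in this line, and any link with the axoneme genes, was not tested. For the axoneme genes with TWEAK the median was -0.14 against 0.02. Other tetratricopeptide repeat genes were tested in 30 of 36 cases. *TTC39A* fell with TWEAK (0.555 times, edgeR, adjusted p = 0.00799) and in *ETS1* KD cells (0.611 times, adjusted p = 0.0377), and *TTC39B* fell in *ETS1* KD cells (0.602 times, adjusted p = 0.0489). For the 2 calls in *ETS1* KD cells, leaving out *ETS1* KD replicate 1, 2 or 3 or TWEAK-treated control replicate 1 or 2 left 0 of these listed genes called, and leaving out TWEAK-treated control replicate 3 left 1. Listed genes called with TWEAK, 3 in all, numbered 1 without TWEAK-treated control replicate 2 or 3, 2 without untreated replicate 1 or 2, and 4 without untreated replicate 3.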

How the data were processed

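RNA-seq and ChIP-seq peak lists of U-87 MG cells were analysed. The genes and the lists of related genes were chosen with earlier results of these data known. The authors trimmed RNA-seq reads with Trimmomatic, used STAR for alignment to hg38 and featureCounts for counting. The deposited table holds raw counts per gene, not normalised by the authors. The strand setting is not given in the sources used here, and reads of overlapping antisense genes could not be separated. Of 62696 rows, 47 with a repeated identifier (1 count in all) were left out, 0 rows named no gene and 62625 identifiers matched GENCODE release 44. The authors' peaks were called by MACS2 in each library on Bowtie2 alignments, and the deposited fold enrichment (ratio at the summit) and −log10 q-value were compared only inside 1 list. The input used for each library is not given in the sources used here, and 3 input samples were not analysed here.

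Counts were filtered by filterByExpr, normalised by TMM and fitted in edgeR 4.0.16 (R 4.3.3) with 4 groups in one model, with a quasi-likelihood F-test, Benjamini-Hochberg adjustment and a threshold of 0.05. Log2 CPM used a prior count of 2. Each standard error was derived from the fit, as the absolute log2 fold change over the square root of the F statistic. On simulated counts with 200 changed genes, 85%, 91% and 92% of 4-fold changes and 65%, 61% and 68% of 2-fold changes were recovered in the TWEAK, *ETS1* KD and *NFKB2* KD comparisons. Of the genes called there, 2.6%, 5.59% and 6.98% were not among those changed. The simulated libraries were drawn independently, with the spread fitted here, so variation shared by real libraries was not covered. Genes named were the 3 genes, the targeted genes, the 5 most alike per gene, genes with the same pattern, called members of the lists, and cell type markers. *RPP38*, *RPP38-DT*, *DCLRE1C*, *CDNF*, *SLCO3A1* and ENSG00000255395 were chosen after their values were seen. Peaks were assigned within 15 kb of a GENCODE start or in the gene. One region near *TTC29* is not reported here. Motifs were searched in Python 3.11.15. All RefSeq promoters used (GRCh38.p14) were matched by symbol, with 2 entries for *SLCO2B1*, 1 for *TTC29* and 0 for *OLAH*. Alternatives were DESeq2 1.42.0, other normalisations, no filter, a replicate block, only 2 groups, leaving out each replicate, other windows and thresholds, and, added after the data were seen, genes with an average log2 CPM under 2.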

Additional observations from a re-analysis of the deposited data

How the results depend on the processing

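All 108 recomputed log2 fold changes of *SLCO2B1*, *OLAH* and *TTC29* kept their sign and moved by less than the spread between replicates. Leaving out a replicate can hardly move a group mean by more than that spread, so those settings could not show otherwise. The genes were also chosen on these contrasts, so nothing is concluded from the 108. Leaving out a replicate gave 2.01 to 2.79 for *OLAH* with TWEAK, and 0.21 to 0.64 for *SLCO2B1* in *NFKB2* KD cells. The number of genes called, 520 with TWEAK, 234 for *ETS1* KD and 5 for *NFKB2* KD, was 859, 469 and 87 without a filter on low counts, 877, 476 and 36 with DESeq2, 475, 264 and 2 with only the 2 groups compared, and 171 to 409, 102 to 148 and 2 to 4 when leaving out a replicate. Listed genes called numbered 1 to 4 with TWEAK and 0 to 1 in *ETS1* KD cells when leaving out a replicate, and 1 in *ETS1* KD cells with no filter, with a replicate block or with only the 2 groups. The causes were not tested.

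With the replicate number as a block, 657, 252 and 4 genes were called. Whether the numbers pair the libraries is not settled by these data. The correlations of deviations ran from -0.30 to 0.49 between same-numbered libraries (9 of 18 over 0.1) and from -0.56 to 0.49 between the others. Of 12 libraries, 7 correlated best with one of their own number.

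The pattern was met by 97 genes (0.575%) at an unadjusted p of at most 0.05 and 1.5-fold. Within 50 kb, *OLAH* had an ETS1 peak in 3 of 4 lists and an RNA Pol II peak in 8 of 8. By list, 15.7% to 31.2% of all genes tested had an ETS1 peak within 50 kb, and 70.4% to 90.5% an RNA Pol II peak. Within 5 kb *TTC29* had an RNA Pol II peak in 1 list instead of 2. The Spearman correlation shared 3, 2 and 3 of the 5 most alike genes of *SLCO2B1*, *OLAH* and *TTC29*. Over all annotated genes, 13.3%, 8.84% and 37.7% had a p52, ETS1 or RNA Pol II peak within 15 kb (mean of the TWEAK control lists), against 23.6%, 18.2% and 76.8% of genes tested. Of the 3 promoter entries, 1 held TGANTCA and 2 the κB consensus in the window of 1000 bases before to 100 after the start. In the shorter window 0 did. These entries were all of *SLCO2B1*, and the *TTC29* entry held neither. Of all promoters, 24.2% held TGANTCA and 29.7% the κB consensus in the longer window.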
